A study of Mus musculus with 20 samples.

Results

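The sites described here are regions where the transcription factor Oct4 (Pou5f1) had a peak in F9 cells treated with retinoic acid (RA), but no peak in untreated F9 cells and none of Sox17 in the treated cells. They were taken from the 39768 strongest Oct4 peaks of F9+RA cells, called candidates below, ranked by the authors' peak score. The sites were chosen by measured values: that score and the absence of overlapping peaks in the other F9 lists. A candidate was a new site without Sox17 when its interval overlapped no peak of the whole Oct4 list of untreated F9 cells (64582 peaks) and no peak of the whole Sox17 list of F9+RA cells (39768 peaks). This left 5036 new sites without Sox17, which is 12.7% of the candidates, in a series whose 18 peak lists hold 765133 peaks.

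The series mapped Oct4, Sox2 and Sox17 by chromatin immunoprecipitation and sequencing (ChIP-seq) in pluripotent and in primitive endoderm-like mouse cells. F9 is an embryonal carcinoma line, a tumour-derived cell type that resembles pluripotent cells and takes on primitive endoderm features with retinoic acid. F9+RA cells received 1 µM RA, and the Oct4 list of F9+RA, the Sox17 list of F9+RA and the Oct4 list of untreated F9 cells come from 1 library each, so no F9 value has a replicate. KH2 embryonic stem (ES) cells were grown with doxycycline at 1 µg/ml, which induced overexpression of a V5-tagged Sox protein, so every ES group carries such a protein and none is an uninduced control. The glutamate proteins are Sox17 and the mutant Sox2KE, and the lysine proteins are the mutant Sox17EK and Sox2. Each ES line had 2 Sox libraries, and the Sox2KE, Sox17EK and Sox2 lines had 2 Oct4 libraries each, named A and B. The Sox17 line had 1 Oct4 library. The labels name the Oct4 antibody alone for F9 Oct4, the Sox17 antibody for F9+RA Sox17, the V5 antibody alone for Sox2KE, Sox17EK and Sox2 in ES cells, and the Sox17 and V5 antibodies for Sox17 in ES cells. For Oct4 in ES cells they name the Oct4 and V5 antibodies. How a pair of named antibodies was applied (jointly, in sequence or either one) is not stated, so an Oct4 or Sox17 peak of ES cells means a peak of a library so named, which may include sites of the tagged Sox protein.

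Oct4 is a POU-domain protein that binds DNA together with Sox proteins, which carry an HMG box. In pluripotent cells its usual partner is Sox2, and in primitive endoderm, the extraembryonic layer that later lines the yolk sac, Sox17 can take that place. Sox2 and Sox17 differ at a residue facing Oct4, a glutamate in Sox17 and a lysine in Sox2, and Sox2KE and Sox17EK carry the exchanged residue.

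The lists hold 32848 to 68294 peaks for Oct4 in ES cells and 5836 to 71693 for the Sox proteins in ES cells, and read depth was unknown. Each library was therefore read in 2 ways: as a whole list, for description, and at equal length for tests, using the 32848 strongest Oct4 peaks or the 5836 strongest Sox peaks. A site counted as having a peak when the intervals shared at least 1 bp. As a background for chance overlap, the sites were also moved 10 kb to either side. Confidence intervals given with a share are exact binomial ones (95%) and cover counting error only. Labelled cell types could not be checked with marker genes, since peak lists hold no expression.

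New sites without Sox17 stood among the weaker and narrower Oct4 peaks of F9+RA cells. Their median rank was 31498.5 of 39768 (quartiles 25215.5 and 36068.5), and the strongest had rank 714. Their median score was 127 (quartiles 110 and 158), compared with 198 over the candidates. The median width was 523 bp, compared with 658 bp over the candidates. The rule itself fixed some of this: it kept candidates with no Oct4 peak in F9 cells (19.7% of candidates) and no Sox17 peak (61.1%), so these values are a description of the chosen sites.

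The other candidates form 3 sets. New sites with Sox17 (2780) overlapped a Sox17 peak and no F9 Oct4 peak, kept sites without Sox17 (19265) overlapped an F9 Oct4 peak and no Sox17 peak, and kept sites with Sox17 (12687) overlapped both. New sites without Sox17 had a median rank behind the 22388.5 of new sites with Sox17 and the 21665 of kept sites without Sox17. Their median width of 523 bp compares with 563 bp for new sites with Sox17 and 601 bp for kept sites without Sox17.

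The number of new sites without Sox17 grew down the ranking, which was cut into 4 bins of 9942 candidates. The strongest bin held 78 of them (0.785% of that bin), the second 496 (4.99%), the third 1542 (15.5%) and the weakest 2920 (29.4%). New sites with Sox17 were spread more evenly, with 485, 703, 795 and 797 in the same bins. More than every other new site without Sox17 (58.0%) thus lay in the weakest bin, where the scores were closest to the end of the ranking.

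**Figure D1:**
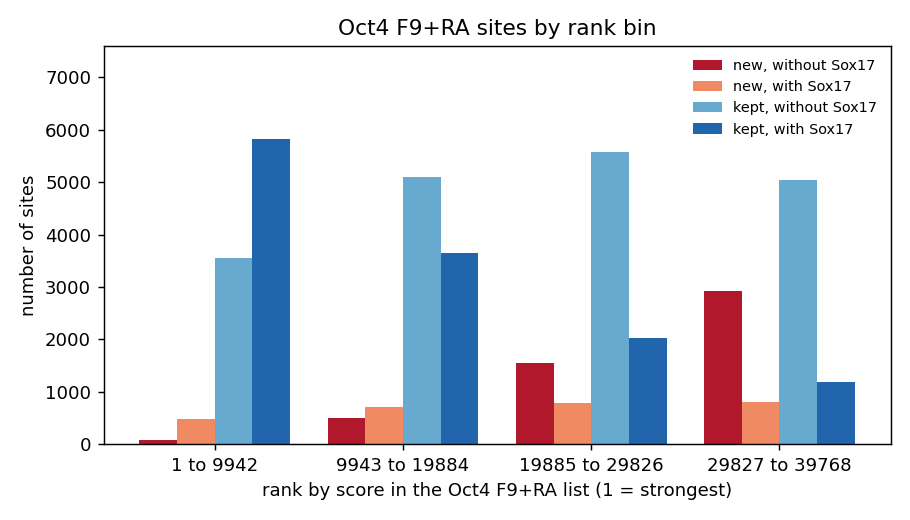
Number of sites (y axis) in 4 equal bins of the ranking of Oct4 F9+RA peaks by score (x axis, strongest on the left), for the 4 sets of candidates. Dark red bars are the new sites without Sox17, which number 78 in the strongest bin and 2920 in the weakest.

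The ranking ends inside a run of nearly equal scores. Positions here and below are in build mm9. The 3 lowest new sites without Sox17 (chr7:77505710-77506143, chr4:35046449-35046854 and chr4:111063379-111063784) each scored 100.15, and the next 3 peaks that met the rest of the rule, which fell outside, scored 100.15, 100.14 and 100.14. The edge in distance was thin as well. Only 64 of the 5036 sites lay less than 50 bp from an F9 Oct4 peak, and 37 lay less than 50 bp from a Sox17 peak.

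Most of the new sites without Sox17 were some kb away from the peaks whose absence defined them. The nearest F9 Oct4 peak was at a median of 7290 bp (quartiles 2011 and 21961 bp), and 830 sites (16.5%) had one within 1 kb. The nearest Sox17 F9+RA peak was at a median of 9865.5 bp, with 657 sites (13.0%) within 1 kb. These distances were much like those of the other sets. New sites with Sox17 had the nearest F9 Oct4 peak at a median of 7813.5 bp (15.2% within 1 kb). Kept sites without Sox17 had the nearest Sox17 peak at a median of 9732 bp (13.5% within 1 kb). From new sites without Sox17, another Oct4 F9+RA peak was closer, at a median of 3488 bp. Another new site without Sox17 was at a median of 70468 bp. The sites were therefore mostly apart from others of their own set, and 748 of them (14.9%) had another of their kind within 10 kb.

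Widths ran from 147 to 4322 bp. The widest site, chr17:26455354-26459675, had 4322 bp, a score of 112 and no peak in any ES list. The next widest, chr6:100410469-100414102 (3634 bp), had an Oct4 peak in the Sox17 line (score 297) and a Sox17 peak in ES replicate A (score 105). The third, chr8:123085742-123088788 (3047 bp), had no ES peak. The ranks of these 3 sites ran from 25920 to 35580, so great width did not go with a high score there. The narrowest, chr9:123832278-123832424, had 147 bp and an F9 Oct4 peak 12 bp away.

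More than every other new site without Sox17 had no peak in any of the 15 ES lists: 2854 sites, or 56.7% (interval 55.3 to 58.0%), against 17.4% of all candidates. An Oct4 peak was found in at least 1 of the 7 Oct4 ES lists at 1941 sites (38.5%, interval 37.2 to 39.9%), against 80.4% of candidates. A Sox peak was found in at least 1 of the 8 Sox ES lists at 1548 sites (30.7%, interval 29.5 to 32.0%), against 72.1% of candidates. Peaks of the ES lists were thus rarer at these sites than at candidates at large, in both families. This was not particular to sites without Sox17. New sites with Sox17 had no ES peak at 46.0%, an Oct4 peak at 46.0% and a Sox peak at 46.2%.

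Of the new sites without Sox17 that had any ES peak, 59.9% had both an Oct4 and a Sox peak, a lower share than among candidates with any ES peak (84.6%). Both kinds were found at 1307 sites (26.0%, against 69.9% of candidates). An Oct4 peak without any Sox peak was found at 634 sites (12.6%, against 10.5% of candidates), a share near the background. A Sox peak without any Oct4 peak was found at 241 sites (4.79%, against 2.22% of candidates).

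Few sites were found in many ES lists. All 7 Oct4 ES lists held a peak at 127 sites (2.52%), against 32.1% of candidates, and exactly 1 list held one at 639 sites (12.7%), against 7.08% of candidates. All 8 Sox lists held a peak at 2 sites, against 3.27% of candidates. New sites with Sox17 had Oct4 peaks in all 7 lists at 1.87% and in exactly 1 list at 18.1%, and kept sites without Sox17 at 29.1% and 6.37%. In the number of Oct4 lists, new sites with and without Sox17 thus lay closer to each other than to kept sites.

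**Figure D2:**
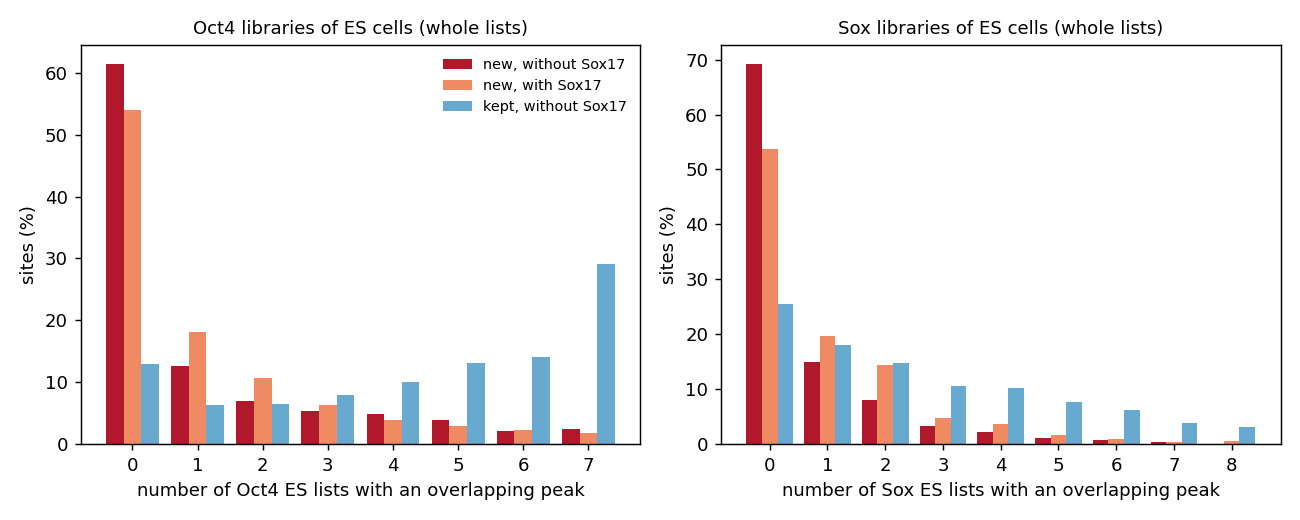
Share of sites (y axis, percent of each set) by the number of whole ES lists with an overlapping peak (x axis), for the 7 Oct4 lists on the left and the 8 Sox lists on the right. New sites without Sox17 (dark red) have no Oct4 ES peak at 61.5% and no Sox ES peak at 69.3%, and 29.1% of kept sites without Sox17 (blue) have a peak in all 7 Oct4 lists.

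In the whole Oct4 lists, the share of new sites without Sox17 with a peak differed between libraries of the same line. In the Sox17 line the single library gave 651 sites (12.9%, against 54.9% of candidates). In the Sox2KE line the share was 22.5% (1132 sites) in A and 11.3% (571) in B, against 61.2% and 49.6% of candidates. In the Sox17EK line it was 23.4% (1176) in A and 14.4% (727) in B, against 72% and 59.3%. In the Sox2 line it was 19.7% (992) in A and 8.12% (409) in B, against 67.6% and 47.5%. Library A, which had the longer list in each of these lines, gave the higher share each time.

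In the whole Sox lists the longer list of a protein also gave the higher share for Sox17, Sox2KE and Sox2, but not for Sox17EK, whose B list was the longer one. Sox17 peaks were found at 179 sites (3.55%) in A and 108 (2.14%) in B, against 20.5% and 10.3% of candidates. Sox2KE peaks were found at 455 sites (9.03%) in A and 1172 (23.3%) in B, against 32% and 59.9%. Sox17EK peaks were found at 340 sites (6.75%) in A and 246 (4.88%) in B, against 34.6% and 23.9%. Sox2 peaks were found at 371 sites (7.37%) in A and 314 (6.24%) in B, against 29% and 26.6%. The Sox2KE B list, the longest Sox list with 71693 peaks, stood above the other 7.

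Most sites with an Oct4 peak in library B of a line also had one in library A, while the share of A found in B was lower. Of the 571 sites in Sox2KE line B, 506 were also in A (88.6%), and these are 44.7% of the 1132 sites in A. For the Sox17EK line 656 sites were shared, 90.2% of those in B and 55.8% of those in A. For the Sox2 line 360 were shared, 88.0% of those in B and 36.3% of those in A. Over all candidates the shares were higher in each of these lines, at 95.7 to 98.5% of B in A and 69.2 to 81.1% of A in B. The Sox libraries repeated each other less evenly. For Sox17 65 sites were shared (36.3% of A and 60.2% of B), and for Sox17EK 104 (30.6% and 42.3%). For Sox2 211 were shared (56.9% of A and 67.2% of B), and for Sox2KE 423 (93.0% and 36.1%). Over all candidates the same shares were 38.1% and 75.7% for Sox17, and 51.7% and 74.8% for Sox17EK. They were 72.5% and 79.1% for Sox2, and 96.7% and 51.6% for Sox2KE.

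At equal list length, Oct4 peaks lay on a slightly larger share of the sites in glutamate lines than in lysine lines. The share was 11.7% in the Sox17 line (591 sites, against 53% of candidates), and 13.6% and 11.3% in libraries A and B of the Sox2KE line (684 and 571 sites, against 50% and 49.6%). It was 9.61% and 9.17% in the Sox17EK line (484 and 462 sites, against 55% and 50.8%) and 9.33% and 8.12% in the Sox2 line (470 and 409 sites, against 51.7% and 47.5%). All 3 glutamate libraries stood above all 4 lysine libraries. The means were 12.2% ± 1.20 (SD, n = 3) in glutamate lines and 9.06% ± 0.651 (SD, n = 4) in lysine lines.

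The difference of 3.16 percentage points had p = 0.0571 in an exact two-sided permutation test over the 7 libraries, which is the smallest p this design allows (adjusted p = 0.0686 over 6 tests, Benjamini-Hochberg). It therefore did not pass a threshold of 0.05. With whole ES lists the sign turned, to -0.821 points (exact permutation p = 0.914), and with only peaks of score 100 or more it was -3.21 points (exact permutation p = 0.629). The labels do not tie libraries A and B to separate cultures, so these p-values measure the spread between libraries, which may be technical, and residue cannot be told apart from line beyond the 4 lines.

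Oct4 peaks were more frequent at the sites themselves than 10 kb away in all 7 libraries. After the move, 3.59 to 3.87% of the positions were overlapped in glutamate libraries and 2.99 to 4.62% in lysine libraries. The sites exceeded this by a mean factor of 3.23 in glutamate libraries (2.93 to 3.51) and 2.36 in lysine libraries (2.08 to 2.72). For kept sites without Sox17 the factor was 8.05 to 10.1 over the 7 libraries.

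**Figure D3:**
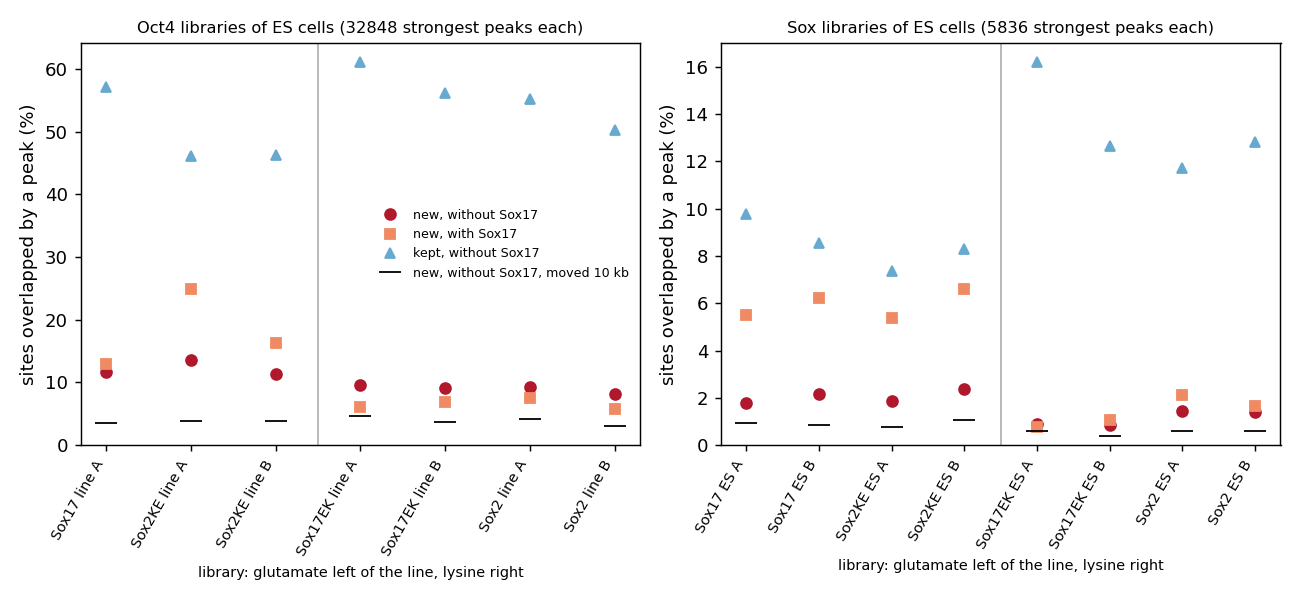
Share of sites overlapped (y axis, percent) by the 32848 strongest Oct4 peaks of each ES library (left) and the 5836 strongest Sox peaks (right), with glutamate libraries left of the grey line and lysine libraries right of it. Circles are new sites without Sox17, squares new sites with Sox17, triangles kept sites without Sox17, and black dashes the new sites without Sox17 after moving them 10 kb. The circles lie between 8.12 and 13.6% for Oct4 and far under the triangles in every library.

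Sox peaks at equal length covered few of the new sites without Sox17 in any library. The share was 1.77% and 2.14% for Sox17 (89 and 108 sites in A and B, against 13% and 10.3% of candidates), and 1.87% and 2.36% for Sox2KE (94 and 119, against 7.27% and 11%). It was 0.874% and 0.854% for Sox17EK (44 and 43, against 11% and 9.04%) and 1.43% and 1.41% for Sox2 (72 and 71, against 8.27% and 9.16%). All 4 glutamate libraries stood above all 4 lysine libraries. The means were 2.04% ± 0.271 for glutamate and 1.14% ± 0.321 for lysine proteins (SD, n = 4 each).

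The difference of 0.894 points had p = 0.0286 in an exact two-sided permutation test, the smallest p that 4 against 4 libraries allow (adjusted p = 0.0429). The peaks behind it differed in width: 5836 peaks covered 5.39 to 9.37 Mb in glutamate libraries and 2.55 to 5.08 Mb in lysine libraries. Moved sites were overlapped at 0.774 to 1.08% in glutamate libraries and 0.387 to 0.616% in lysine libraries. The mean excess over moved sites was 2.25-fold in glutamate (1.91 to 2.48) and 2.07-fold in lysine libraries (1.47 to 2.32). By this factor the glutamate and lysine libraries overlapped in range. After subtracting the moved share in each library, an alternative chosen after seeing the data, the gap was 0.536 points (exact permutation p = 0.0286). When sites were matched by midpoints (within 200 bp) in place of overlap it was -1.04 points (exact permutation p = 0.143), so the sign depended on the way of matching. Leaving out any 1 of the 8 libraries gave 0.784 to 0.990 points, each with the smallest p then possible (exact permutation p = 0.0571), and whole ES lists gave 3.19 points (exact permutation p = 0.771). Each protein had 2 libraries, which these tests treated as separate, so the p-values measure the spread between libraries. Residue cannot be told apart from line here either.

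Against kept sites without Sox17, which lacked Sox17 in F9+RA cells as well but had Oct4 before RA, the new sites had far fewer Oct4 peaks in ES cells. The mean share at equal length was 10.4% ± 1.88 at new sites and 53.2% ± 5.75 at kept sites (SD, n = 7 libraries). The share was lower at new sites in 7 of 7 libraries, with a mean difference of -42.7 points and a range of -51.6 to -32.5 points. An exact two-sided sign-flip permutation test gave p = 0.0156, the smallest that 7 libraries allow (adjusted p = 0.03125). With the libraries of each line averaged, the exact sign-flip permutation p was 0.125, the smallest then possible. The rule had split these sets by Oct4 in untreated F9 cells, which resemble pluripotent cells. A lower share in ES cells was therefore likely beforehand, and the p-value is no separate support for it.

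The same held for Sox peaks, at 1.59% ± 0.551 of new sites and 10.9% ± 2.97 of kept sites (SD, n = 8 libraries). The share was lower at new sites in 8 of 8 libraries, with a mean difference of -9.33 points (exact sign-flip permutation p = 0.00781, the smallest that 8 libraries allow, adjusted p = 0.03125). With the libraries of each line averaged, the exact sign-flip permutation p was 0.125, the smallest then possible. The limit set by the split on F9 Oct4 peaks holds here too. The new sites were also weaker peaks than the kept sites. Among ranks 19885 to 39768 alone, the Oct4 share was 9.82% ± 1.53 at 4462 new sites and 40.6% ± 5.10 at 10619 kept sites (SD, n = 7). The Sox share there was 1.49% ± 0.517 at new sites and 6.03% ± 1.10 at kept sites (SD, n = 8).

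Share and rank moved together in both sets, without closing the gap between them. Over the 4 rank bins, strongest first, a mean of 18.5, 14.5, 11.4 and 8.97% of new sites without Sox17 were overlapped by an Oct4 ES library at equal length. For kept sites without Sox17 these means were 80.5, 60.3, 44.9 and 35.8%. An Oct4 peak in any of the 7 whole lists was found at 61.5, 51.4, 41.2 and 34.3% of new sites without Sox17 and at 97.1, 91.2, 84.6 and 78.8% of kept sites. For new sites with Sox17 these values were 64.1, 49.8, 42.3 and 35.5%, close to those without Sox17 in each bin. By the equal-length means, the strongest bin of new sites without Sox17, with 78 members, had a lower share than the weakest bin of kept sites. Kept sites had their own gradient in untreated F9 cells, where their median Oct4 score was 658 in the strongest bin and 134 in the weakest.

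Against new sites with Sox17, the mean Oct4 share in ES cells did not differ beyond the spread of the libraries. It was 10.4% ± 1.88 at new sites without Sox17 and 11.5% ± 7.09 at new sites with Sox17 (SD, n = 7). The mean difference was -1.07 points (exact two-sided sign-flip permutation p = 0.6875, adjusted p = 0.6875), and it was negative in 3 of 7 libraries. It changed sign with a single library left out: without Sox2KE line A it was 0.629 points (exact permutation p = 0.656). With midpoints within 200 bp it was -3.33 points (exact permutation p = 0.0469).

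The 7 libraries were divided by residue in this comparison. In the glutamate lines, Oct4 peaks lay on 11.7% of new sites without Sox17 and 12.9% of those with Sox17 in the Sox17 line, on 13.6% and 24.9% in Sox2KE line A, and on 11.3% and 16.3% in Sox2KE line B. In the lysine lines the same shares were 9.61% and 6.08% in Sox17EK line A, 9.17% and 6.94% in Sox17EK line B, 9.33% and 7.55% in Sox2 line A, and 8.12% and 5.76% in Sox2 line B. Sites without Sox17 had the lower share in all 3 glutamate libraries and the higher share in all 4 lysine libraries. The difference without minus with Sox17 averaged -5.80 ± 5.09 points in glutamate lines (SD, n = 3) and 2.48 ± 0.747 points in lysine lines (SD, n = 4).

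These differences were themselves apart by -8.28 points between glutamate and lysine lines (exact two-sided permutation p = 0.0571, the smallest p possible, adjusted p = 0.0571 over 2 tests). This comparison was not planned and was chosen after seeing the data. Among ranks 19885 to 39768 alone the gap was -4.77 points (exact permutation p = 0.0571). The glutamate shares at new sites with Sox17 varied by line and library from 12.9 to 24.9%, while those at new sites without Sox17 kept to 11.3 to 13.6%. At new sites with Sox17 the mean was 18.02% ± 6.15 in glutamate lines (SD, n = 3) and 6.58% ± 0.819 in lysine lines (SD, n = 4), a wider gap than at new sites without Sox17.

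For Sox peaks in ES cells, new sites without Sox17 had lower shares than new sites with Sox17 in 7 of 8 libraries. The means were 1.59% ± 0.551 without Sox17 and 3.66% ± 2.49 with Sox17 (SD, n = 8), with a mean difference of -2.07 points (exact two-sided sign-flip permutation p = 0.0156, adjusted p = 0.03125). With midpoints within 200 bp this was -1.23 points (exact permutation p = 0.203), and among the 10000 strongest candidates, where 79 sites remained, -4.15 points (exact permutation p = 0.0547). With the libraries of each line averaged, the exact sign-flip permutation p was 0.125, the smallest then possible. The rule had split these sets by Sox17 in F9+RA cells, and Sox17 is among the tested proteins. A lower share was therefore likely for the Sox17 lists beforehand, and the p-value is no separate support for it.

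Each of the 4 glutamate libraries showed a larger difference than each of the 4 lysine libraries. For Sox17, the share was 1.77 and 2.14% at new sites without Sox17, and 5.50 and 6.22% at those with it (A and B). For Sox2KE it was 1.87 and 2.36% without, and 5.36 and 6.62% with Sox17. For Sox17EK it was 0.874 and 0.854% without and 0.755 and 1.04% with Sox17, and for Sox2 1.43 and 1.41% without and 2.12 and 1.65% with it. The difference averaged -3.89 ± 0.342 points for glutamate and -0.252 ± 0.334 points for lysine proteins (SD, n = 4 each). The gap of -3.64 points between them had an exact two-sided permutation p of 0.0286, the smallest possible, and an adjusted p of 0.0571 over the same 2 unplanned tests. Among ranks 19885 to 39768 alone the gap was -2.03 points (exact permutation p = 0.0286). Sox17 libraries are among the glutamate ones, and the rule had split the sets by Sox17. A larger difference was therefore likely for the Sox17 libraries beforehand, and the p-value of the gap is no separate support for it.

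**Figure D4:**
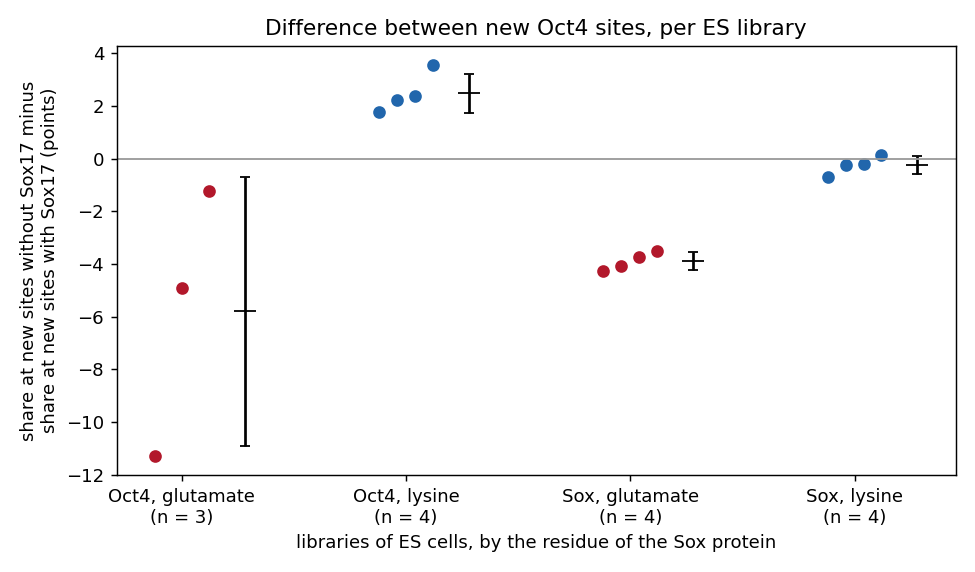
Difference, in percentage points, between the share at new sites without Sox17 and the share at new sites with Sox17 (y axis), for each ES library at equal list length, by antibody target and residue of the induced Sox protein (x axis). Points are libraries and bars the mean ± SD. The 3 glutamate Oct4 libraries lie below 0 and the 4 lysine Oct4 libraries above it, and the 4 glutamate Sox libraries lie below the 4 lysine ones.

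Oct4 peaks that belonged to lines of 1 residue only were counted in whole lists of unequal length, 3 of glutamate and 4 of lysine lines. The counts are therefore set against candidates and not compared between residues. A peak in at least 1 glutamate line and no lysine line was found at 450 sites (8.94%, against 4.38% of candidates). The reverse, a peak in at least 1 lysine line and no glutamate line, was found at 504 sites (10.0%, against 9.19% of candidates), a share near the background. New sites with Sox17 had these patterns at 22.2% for glutamate lines only and 4.71% for lysine lines only. Of the glutamate-line sites, 261 (5.18%, against 2.28% of candidates) had their Oct4 peak in Sox2KE line A alone among the 7 lists. Those of the Sox17 line alone numbered 79 (1.57%, against 0.78% of candidates).

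Peaks of an Oct4 library and of a Sox library of the same ES line fell together at 1181 new sites without Sox17 (23.5%, against 67.6% of candidates). In the Sox17 line this was so at 158 sites (3.14%, against 21.2%) and in the Sox2KE line at 871 (17.3%, against 55.5%). In the Sox17EK line it was so at 396 sites (7.86%, against 39.6%) and in the Sox2 line at 421 (8.36%, against 33.6%). These counts use whole lists of unequal length, so they are not compared between lines. The labels name the V5 antibody for the Oct4 libraries too, so such a site may hold the tagged Sox protein alone. A Sox2KE peak with no peak of the other 3 Sox proteins was found at 669 sites (13.3%, against 17.4% of candidates).

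The ES peaks that did overlap new sites without Sox17 were of middling strength in their own lists. Their median rank, as a percentile of the list with low values strongest, was 51.0 to 62.4 over the 7 Oct4 libraries, compared with 41.3 to 65.7 at new sites with Sox17 and 24.996 to 43.0 at kept sites without Sox17. Over the 8 Sox libraries it was 38.0 to 58.6 at new sites without Sox17, 28.1 to 53.1 at new sites with Sox17 and 20.01 to 46.9 at kept sites without Sox17. In the Oct4 lists new sites with and without Sox17 thus overlapped in range, and those without Sox17 lay above the range of kept sites.

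The 10 strongest new sites without Sox17 had ranks 714 to 3243 and differed among themselves in the ES lists. Their genes are not named, since no annotation of build mm9 was used here. The strongest, chr2:128044219-128044916 (score 1303), had an Oct4 peak in Sox2KE line A (score 1122) and B (127), a Sox2KE peak in B (77.2) and no peak in the other 12 ES lists. Its nearest F9 Oct4 peak was 6105 bp away. Similar in kind were chr9:64539493-64540384 (score 1015), chr4:103889797-103890603 (840) and chr11:113216664-113217459 (726), where all ES peaks came from the Sox2KE line. The site on chromosome 9 lay 151 bp from a Sox17 peak, so it met the rule narrowly.

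Of the same 10 sites, 3 had no ES peak: chr3:122246153-122246558 (score 1063), chr13:39076921-39077323 (1020) and chr4:115521504-115522719 (659). Another, chr17:35737862-35739400 (score 758), had peaks in the Sox17EK line alone, for Oct4 in A and B (131 and 102) and for Sox17EK in B (52.8). The site chr6:8037963-8038319 (score 687) had Oct4 peaks in both Sox2KE line libraries (214 and 55.2) and in the Sox17 line (57.8), and no Sox peak. The remaining one, chr2:87320908-87321810 (score 836), had Oct4 peaks in 5 lists from all 4 lines and Sox2KE and Sox17EK peaks in both libraries. It lay 211 bp from a Sox17 F9+RA peak.

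After the 3 already named, the strongest sites with no ES peak were chr2:33789157-33790203 (score 577) and chr5:143894239-143895504 (503). They lay 45236 and 5171 bp from the nearest F9 Oct4 peak.

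None of the 10 strongest sites had an Oct4 peak in all 7 ES lists. The strongest 5 sites that did had ranks 8373 to 13180. The first, chr13:33996836-33997877, had a score of 389 and lay 485 bp from a Sox17 F9+RA peak. The next, chr19:43689983-43691696 (score 338), lay 189 bp from an F9 Oct4 peak and 352 bp from a Sox17 peak. It was followed by chr5:119848013-119848524 (305), chr9:60635477-60636005 (296) and chr9:51933434-51933747 (282). All 5 had peaks in 6 or 7 of the 8 Sox lists too. Oct4 and Sox peaks were thus both present at these sites in ES cells, while the untreated F9 list had no overlapping peak.

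Only chr3:65446582-65447154 and chr1:167986291-167986755 had a peak in all 15 ES lists. Their Oct4 scores in F9+RA cells were 180 (rank 22021) and 122 (rank 32748), and the nearest F9 Oct4 peaks were 5506 and 11434 bp away. With 7 Sox lists each followed chr16:29955716-29956517 (score 475) and chr5:101291960-101292831 (306), which had Oct4 peaks in 5 and 6 ES lists, and the site on chromosome 5 named above at 119848013.

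Among the 79 sites whose only Oct4 ES peak was in the Sox17 line, the strongest was chr17:15429196-15430005 (score 479, rank 5941). Its Oct4 peak in that line scored 443, and Sox17 peaks of ES cells overlapped it in A (540) and B (283). The next 4 had weaker Oct4 peaks there: chr5:76228306-76228826 (60.7), chr1:97184714-97185019 (85.8), chr15:18553456-18553958 (51.5) and chr6:47795715-47796141 (67.5). Of these 4, the site on chromosome 1 had a Sox17 ES peak, in B (65.4). The site on chromosome 15 was the most isolated, 194094 bp from an F9 Oct4 peak and 694789 bp from a Sox17 F9+RA peak.

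New sites without Sox17 were unevenly spread over the chromosomes, which is a description with no test. Chromosome 12 held 497 of them (9.87%), against 7.58% of candidates, a ratio of 1.30, and chromosome 6 followed with 371 (ratio 1.22). Of the other sets, chromosome 12 held 8.60% of new sites with Sox17, 8.97% of kept sites with Sox17 and 5.92% of kept sites without Sox17. Chromosome 11 had a ratio of 0.736 and the X chromosome 0.777. Of the 20 windows of 1 Mb with most new sites without Sox17, 14 were on chromosome 12, 4 on chromosome 6 and 2 on chromosome 8. Chromosome 12 thus stood highest both by its share and by its dense windows.

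The fullest window, chr12:113000001-114000000, had 34 such sites among 207 candidates. It was followed by chr12:106000001-107000000 with 27 of 174, and by chr12:87000001-88000000 and chr12:107000001-108000000 with 27 of 125 each. Past 86 Mb of chromosome 12 lay 73.8% of its new sites without Sox17 and 71.1% of its candidates, so the candidates crowded there to nearly the same degree.

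On chromosome 12 the new sites without Sox17 also had fewer ES peaks. An Oct4 peak in at least 1 ES list was found at 17.1% of the 497 sites there and at 40.9% of the 4539 elsewhere. New sites with Sox17 had nearly the same value on chromosome 12, 17.2%. Candidates as a whole showed a low value there too, 54.4%, as did kept sites without Sox17, with 60.3%. The highest shares of new sites without Sox17 were those of chromosomes 14 (69.0%) and 1 (64.4%). Leaving out chromosome 12 changed no sign and no call of the 6 planned tests.

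**Figure D5:**
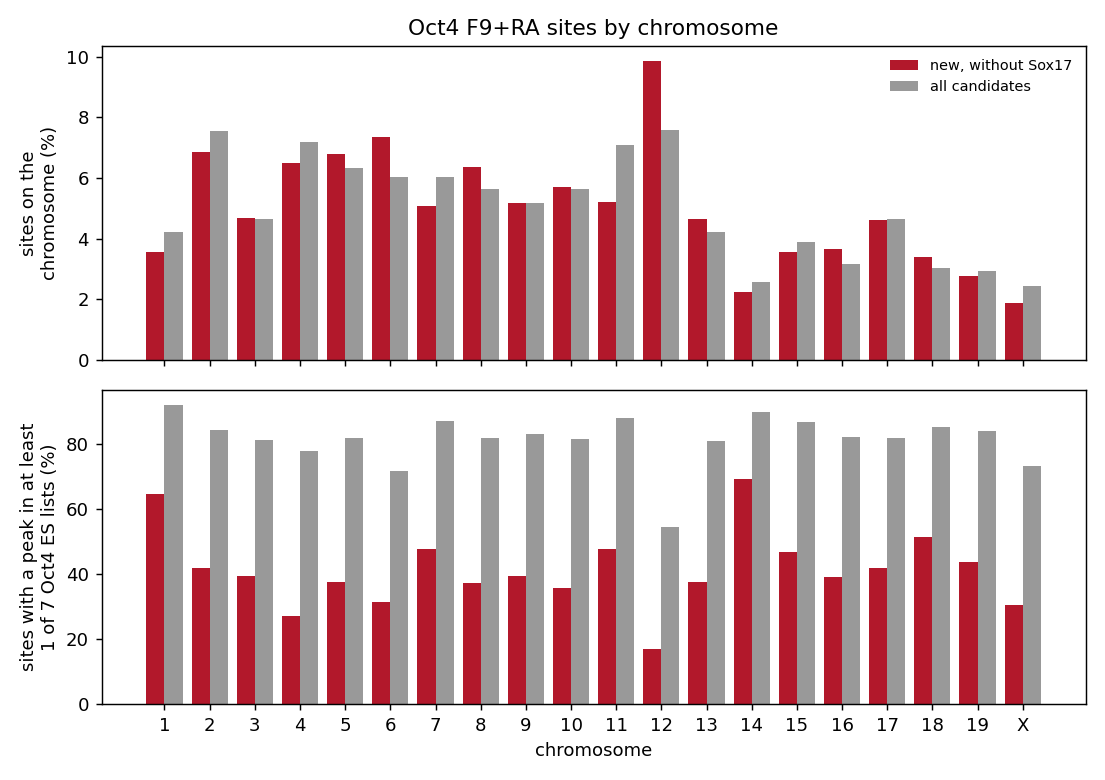
Top, share of the new sites without Sox17 (dark red) and of all candidates (grey) on each chromosome (y axis, percent). Bottom, share of those sites with a peak in at least 1 of 7 Oct4 ES lists (y axis, percent). On chromosome 12, 9.87% of the new sites without Sox17 are found, and 17.1% of them have an Oct4 ES peak.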

How the data were processed

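Of the 20 samples, 18 gave a ChIP-seq peak list, and the mock samples (2) were not used here. The deposited lists have 5 columns and no header: chromosome, start, end, peak name and a score. The names carry the MACS prefix, and the authors' score was read as 10 times −log10 p, as MACS writes it, because the lowest values lie between 50 and 50.03. The scale is an inference, so scores served only to rank peaks within a list and to describe named regions. The submitters' processing notes name build mm9, and positions are printed counting from 1. Which aligner, caller version and control library were used is not given in the sources used here. Peaks were listed per library, and read depth was unknown.

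Overlap was counted on intervals, with presence at 1 bp or more. Planned tests were 6 exact two-sided permutation tests over libraries, adjusted together (Benjamini-Hochberg). Those against kept sites had an outcome likely beforehand, and their small p-values can lower the adjusted p of the other planned tests. A further 2 were added after the data were seen and adjusted as a family of their own. Overlap counting and tests were checked on simulated lists. Named regions were the strongest members, those in most ES lists, those in the Oct4 list of the Sox17 line alone, those in none, and those at the edges of score and width. Sites, sets and tests were chosen with earlier results of these data known. No annotation of mm9 was used here, so regions carry no gene names and no sequences. Columns not used numbered 0. Alternatives covered matching, list length, score minimum, the lower ranks alone, chromosome 12, the replicate block and leaving out each library. Software was SciPy 1.17.1, pandas 2.3.3, NumPy 2.4.6 and matplotlib 3.10.9 under Python 3.11.15.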

Additional observations from a re-analysis of the deposited data

Results flagged for a closer look

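The difference between new sites without Sox17 and new sites with Sox17 was not the same in glutamate and lysine ES lines. For Oct4 peaks, the difference without minus with Sox17 was -5.80 ± 5.09 points in glutamate lines (SD, n = 3) and 2.48 ± 0.747 points in lysine lines (SD, n = 4). These were -8.28 points apart, with the 3 glutamate libraries all negative and the 4 lysine libraries all positive (exact two-sided permutation p = 0.0571, the smallest possible). For Sox peaks the difference was -3.89 ± 0.342 points for glutamate and -0.252 ± 0.334 points for lysine proteins (SD, n = 4 each). These were -3.64 points apart (exact two-sided permutation p = 0.0286, the smallest possible, adjusted p = 0.0571). The rule had split the sets by Sox17, and Sox17 libraries are among the glutamate ones. A larger difference was therefore likely for the Sox17 libraries beforehand. Neither the Oct4 nor the Sox contrast passed 0.05 after adjustment over the 2 tests. New sites with Sox17 were the stronger peaks, and among ranks 19885 to 39768 alone both contrasts were smaller. They were then -4.77 points for Oct4 and -2.03 points for Sox. Both tests ran over libraries, so residue cannot be told apart from line.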

How the results depend on the processing

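The number of new sites without Sox17 was 5036, and 11340 with midpoints within 200 bp, 30482 from the whole Oct4 F9+RA list, 10813 with scores of 100 or more and 79 among the 10000 strongest candidates. Overlap of 50% of the narrower interval, a margin of 1 kb and leaving out chromosome 12 gave 5277, 3822 and 4539. Differences below are in percentage points, the first-named group minus the other, with exact permutation p.

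The Oct4 difference between glutamate and lysine lines (3.16) turned with whole ES lists (-0.821) and with scores of 100 or more (-3.21). The Sox difference between glutamate and lysine proteins (0.894) turned with midpoints (-1.04) and missed 0.05 with whole ES lists (3.19), a margin of 1 kb (0.536), the 10000 strongest (0.633) and scores of 100 or more (4.004). The Oct4 difference between new sites without and with Sox17 (-1.07) passed 0.05 with midpoints (-3.33) and the whole Oct4 F9+RA list (-3.19). It turned with the 10000 strongest (2.23), scores of 100 or more (0.169), ranks 19885 to 39768 alone (0.185) and without Sox2KE line A (0.629). The Sox difference between these sets (-2.07) missed 0.05 with midpoints (-1.23) and the 10000 strongest (-4.15). The cause was not tested. The differences between new and kept sites without Sox17 kept their sign and call under all alternatives run except the replicate block.

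Leaving out each library gave 2.48 to 3.60 for Oct4 and 0.784 to 0.990 for Sox between glutamate and lysine, the Sox values at an exact permutation p = 0.0571 each, the smallest possible. It gave -1.84 to 0.629 and -2.38 to -1.76 for Oct4 and Sox between new sites without and with Sox17, and -44.5 to -41.3 and -9.88 to -8.47 against kept sites. The added Oct4 and Sox differences ranged from -10.6 to -5.54 and from -3.79 to -3.52, the Sox ones at an exact permutation p = 0.0571 each.

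Letters A and B were not taken to pair the samples, since not every correlation was above 0.1: deviations of same-lettered Oct4 libraries correlated at 0.109, 0.132 and 0.0467, and those of Sox libraries at -0.0411 to 0.0418, over 39768 sites. For Oct4 the first 2 passed that limit and A exceeded B in all 3 lines at equal length, so a shared effect of the letter was not settled. With the replicate block the Sox difference between residues was 0.894 and the added Sox difference -3.64 (exact permutation p = 0.0556 each). New sites without minus with Sox17 gave -2.07 for Sox, and new minus kept sites gave -43.1 for Oct4 and -9.33 for Sox, each at an exact permutation p = 0.125, the smallest that 4 lines allow. The Oct4 difference between residues was then 2.94 (exact permutation p = 0.111).

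Depth was unknown, so no peak means none above the authors' threshold. At 34.2% of the kept sites without Sox17 in the weakest of 4 rank bins, the F9 Oct4 peak scored below 100, in a list whose lowest score was 50.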
